A study of Mus musculus with 3 samples.

Results

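Adgrb3, Tenm3, Pcdh11x, Lrrc4c, Cntnap5a and Anks1b are genes best known from synapses, where 5 of them encode adhesion proteins of the neuronal surface and Anks1b encodes a scaffold protein. They were chosen by name, as synaptic adhesion or scaffold genes that stood higher in old than in young kidney, and are 6 of the 33696 genes in the deposited count tables. Since measured levels chose them, their old-over-young values are given as a description with no test. The kidney cells came from male mice in 3 groups with 1 single-cell library each. The old D+Q kidney was from the group treated with D+Q, a name usually given to the senolytic pair dasatinib and quercetin, at an age of 20 months. The old kidney was from a vehicle group of the same age, and the young kidney was from a group of 3 to 4 months. No transgene or deleted allele is named for any group, and the labels name no strain, dose or number of animals behind a library. With 1 library per group there was no replicate check and no test between groups was possible, so "higher" and "lower" describe these libraries. Every interval below is a 95% interval that covers counting error only.

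Synaptic adhesion proteins span the cell membrane and bind partners on a facing cell, and scaffold proteins hold receptors and channels in place beneath the membrane. Adgrb3 is an adhesion G protein-coupled receptor that binds C1q-like proteins, and Tenm3 is a teneurin that guides the wiring of neural circuits by binding other teneurins and latrophilins. Pcdh11x is an X-linked protocadherin, Lrrc4c (netrin-G ligand 1) binds netrin-G1, Cntnap5a belongs to the contactin-associated family related to neurexins, and Anks1b is an ankyrin-repeat protein of the postsynaptic density. The proximal tubule is the epithelium that takes back most filtered solute, with an early S1 and a late S3 segment.

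The Ensembl identifiers in the files are ENSMUSG00000033569 for Adgrb3, ENSMUSG00000031561 for Tenm3, ENSMUSG00000034755 for Pcdh11x, ENSMUSG00000050587 for Lrrc4c, ENSMUSG00000070695 for Cntnap5a and ENSMUSG00000058589 for Anks1b. All 6 are very long genes. In RefSeq's annotation of GRCm38.p6 they span 620 kb (Pcdh11x, chromosome X), 767 kb (Adgrb3, chromosome 1), 903 kb (Cntnap5a, chromosome 1), 1100.4 kb (Anks1b, chromosome 10), 1297 kb (Tenm3, chromosome 8) and 1314 kb (Lrrc4c, chromosome 2), against a median of 17.1 kb over 21900 protein-coding genes. Each is longer than at least 99.3% of those genes.

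The 250 bases before the transcription start, from RefSeq on GRCm38.p6, are shown for 3 of the 4 genes with an entry, because these genes differed most in where and how they changed. Adgrb3 was the gene with the largest difference between old and young tubule, Tenm3 was a gene that differed with age in one set of cells and little in another, and Lrrc4c was the gene whose tubule level did not separate by age. Capitals mark a match to one of 3 motifs searched on both strands, which were the CCAAT box (CCAAT), the cAMP response element (TGACGTCA) and an HNF4A site (CAAAGTCCA). The motifs do not overlap in their letters, and each sequence runs 5′ to 3′ on the gene's strand.
Adgrb3 (chr1:25829708-25829957, minus strand): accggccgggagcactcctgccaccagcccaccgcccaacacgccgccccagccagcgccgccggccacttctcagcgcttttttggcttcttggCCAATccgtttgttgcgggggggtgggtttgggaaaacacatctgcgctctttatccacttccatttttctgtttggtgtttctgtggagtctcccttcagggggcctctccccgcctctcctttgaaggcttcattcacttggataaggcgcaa
Tenm3 (chr8:48674691-48674940, minus strand): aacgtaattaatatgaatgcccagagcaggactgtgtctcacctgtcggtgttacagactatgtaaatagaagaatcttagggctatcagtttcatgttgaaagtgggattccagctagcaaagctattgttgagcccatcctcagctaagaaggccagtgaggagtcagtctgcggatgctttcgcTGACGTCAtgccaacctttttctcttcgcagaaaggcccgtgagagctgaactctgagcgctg
Lrrc4c (chr2:96317919-96318168, plus strand): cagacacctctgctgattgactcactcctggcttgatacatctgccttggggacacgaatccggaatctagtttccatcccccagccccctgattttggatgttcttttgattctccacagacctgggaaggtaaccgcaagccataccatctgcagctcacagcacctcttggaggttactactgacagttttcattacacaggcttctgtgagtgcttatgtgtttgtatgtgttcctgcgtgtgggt
Adgrb3 held a CCAAT box 155 bases before its start, a motif in 33.8% of 32851 RefSeq promoter windows of the same length. Tenm3 held a cAMP response element 63 bases before its start, which 1.55% of windows hold. The Lrrc4c window held no match. Of the 5 annotated starts of Anks1b, 1 had a match, a CCAAT box 225 bases before the start. No window of these 4 genes held the HNF4A letters, found in 0.384% of windows. A match is a run of letters and was not tested as a binding site.

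The old D+Q, old and young libraries held 8037, 6027 and 8615 barcodes with median depths of 2299, 1883 and 2391 UMIs (unique molecule counts). After filters on mitochondrial share and doublets, 7456, 5692 and 7698 cells were kept, and 5527, 4394 and 5506 of them were placed in the proximal tubule by marker genes that include none of the 6. Few barcodes were shared between libraries, at 28 for old D+Q and old, 33 for old D+Q and young, and 38 for old and young. The tubule markers summed to 17074, 17039 and 15386 CPM (counts per 1000000 counts) in old D+Q, old and young proximal tubule. They also set the label, so their level is no separate check of it. RNA of the proximal tubule was also found in other barcodes, since the same markers summed to 9688, 12074 and 9659 CPM in endothelial cells. Levels of the 6 genes outside the tubule therefore include some tubule RNA, in a share that was not tested.

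In the proximal tubule, 5 of the 6 genes stood higher in old than in young cells by at least 2-fold, and Lrrc4c did not. Over all genes past a floor of 30 counts and 5 CPM, 0.884% of 11086 stood at least 2-fold higher in old, and since the genes were chosen on this contrast nothing is read from their count. Over the whole tubule under D+Q, Adgrb3, Tenm3, Cntnap5a and Anks1b were lower than in old and Pcdh11x was level with old. None of the 6 was lower by 2-fold, against 0.316% of all genes. Within groups of tubule cells, given below, Tenm3 was not lower in the group that held most of its counts. That group also held most Adgrb3 counts, and there the Adgrb3 log2 ratio was -0.26, against -0.55 over the whole tubule. Adgrb3, Tenm3 and Pcdh11x stood at least 2-fold above young in old D+Q cells, against 0.604% of all genes. These comparisons share libraries, so they are not independent of each other or of the choice of genes.

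**Figure D1:**
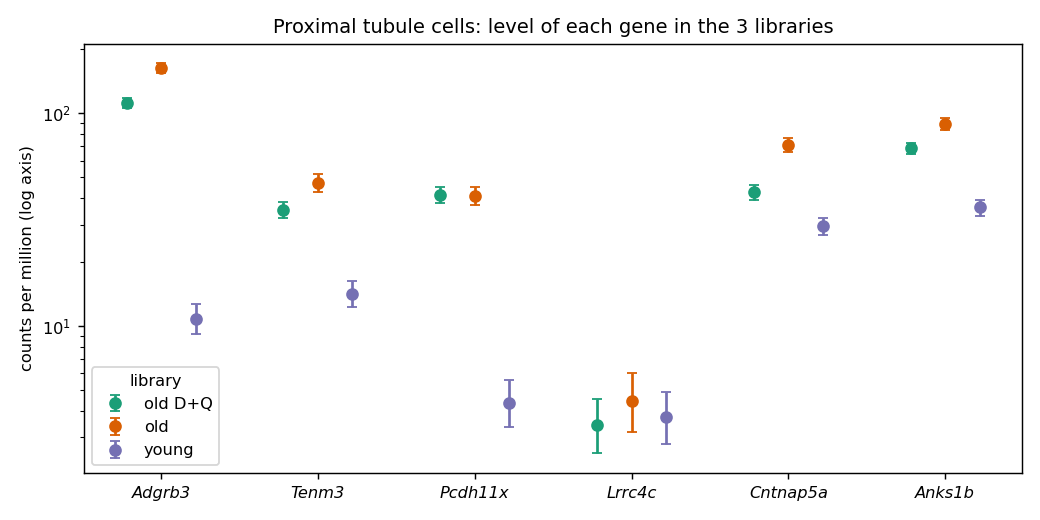
Level of each gene in proximal tubule cells, in CPM on a log axis, for the old D+Q, old and young libraries (1 point per library, bars are exact Poisson 95% intervals for counting error). Adgrb3 stood at 112, 163 and 10.8 CPM, while the 3 Lrrc4c intervals overlap at about the same level.

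Adgrb3, the adhesion receptor, was at 112 CPM in old D+Q tubule (1534 counts), 163 CPM in old tubule (1508 counts) and 10.8 CPM in young tubule (154 counts). Both old libraries were far above young, and D+Q lay between old and young but nearer to old. The log2 ratio was -0.55 for old D+Q over old (-0.65 to -0.44), 3.37 for old D+Q over young (3.13 to 3.62) and 3.91 for old over young (3.68 to 4.16). Adgrb3 ranked 9 of 11086 genes from the highest in old over young. Cells with an Adgrb3 UMI were 13.3%, 16.8% and 2.00% of old D+Q, old and young tubule cells, and such cells held 2.08, 2.05 and 1.40 UMIs of it on average. More cells with a UMI, and more UMIs in each, thus accompanied the higher level in both old libraries.

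Tenm3, the teneurin, was at 35.1, 47.1 and 14.2 CPM in old D+Q, old and young tubule (482, 435 and 202 counts). Old was the highest and young the lowest, with intervals that did not overlap. The log2 ratio was -0.42 for old D+Q over old (-0.61 to -0.23), 1.31 for old D+Q over young (1.07 to 1.55) and 1.73 for old over young (1.49 to 1.98).

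Pcdh11x, the protocadherin, was at 41.3, 40.9 and 4.35 CPM in old D+Q, old and young tubule (567, 378 and 62 counts). It was the member whose old D+Q and old levels were closest, with a log2 ratio of 0.01 (-0.18 to 0.21). Its ratio over young was 3.24 for old D+Q (2.87 to 3.65) and 3.22 for old (2.84 to 3.64). Few cells carried it, at 297, 245 and 32 of the old D+Q, old and young tubule cells. One young cell held 22 of the 62 young counts, and one old D+Q cell held 27 UMIs, both of them in the S1 range described below. Without these 2 cells, left out after their values were seen, Pcdh11x was at 39.4, 40.9 and 2.81 CPM, with ratios of -0.06 for old D+Q over old, 3.79 for old D+Q over young (3.34 to 4.31) and 3.85 for old over young (3.39 to 4.37).

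Lrrc4c, the netrin-G1 binder, was at 3.42, 4.44 and 3.72 CPM in old D+Q, old and young tubule (47, 41 and 53 counts), under the floor of 5 CPM. The 3 levels overlapped in their intervals, and the log2 ratio of old over young was 0.26 (-0.37 to 0.87). A higher level in old tubule was therefore not detectable for Lrrc4c at this depth. Over all kept cells its old-over-young ratio was 0.59 (0.38 to 0.81). Most of those counts lay in Slc34a2/Grik1-expressing cells, described below, which were 4.71% of old cells and 3.81% of young cells. The part of this unlike share in the ratio was not tested.

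Cntnap5a, of the neurexin-related family, was at 42.5, 70.9 and 29.4 CPM in old D+Q, old and young tubule (584, 655 and 419 counts). It had the lowest ratio of the 6 in old D+Q over old, at -0.74 (-0.90 to -0.57), and ranked 10973 of 11086 genes from the highest there. The ratio was 0.53 for old D+Q over young (0.35 to 0.72) and 1.27 for old over young (1.09 to 1.45).

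Anks1b, the scaffold gene, was at 68.4, 89.3 and 36.1 CPM in old D+Q, old and young tubule (939, 825 and 514 counts). The log2 ratio was -0.38 for old D+Q over old (-0.52 to -0.25), 0.92 for old D+Q over young (0.77 to 1.08) and 1.31 for old over young (1.15 to 1.47). D+Q thus lay between the other libraries for Anks1b, as for Adgrb3, Tenm3 and Cntnap5a.

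**Figure D2:**
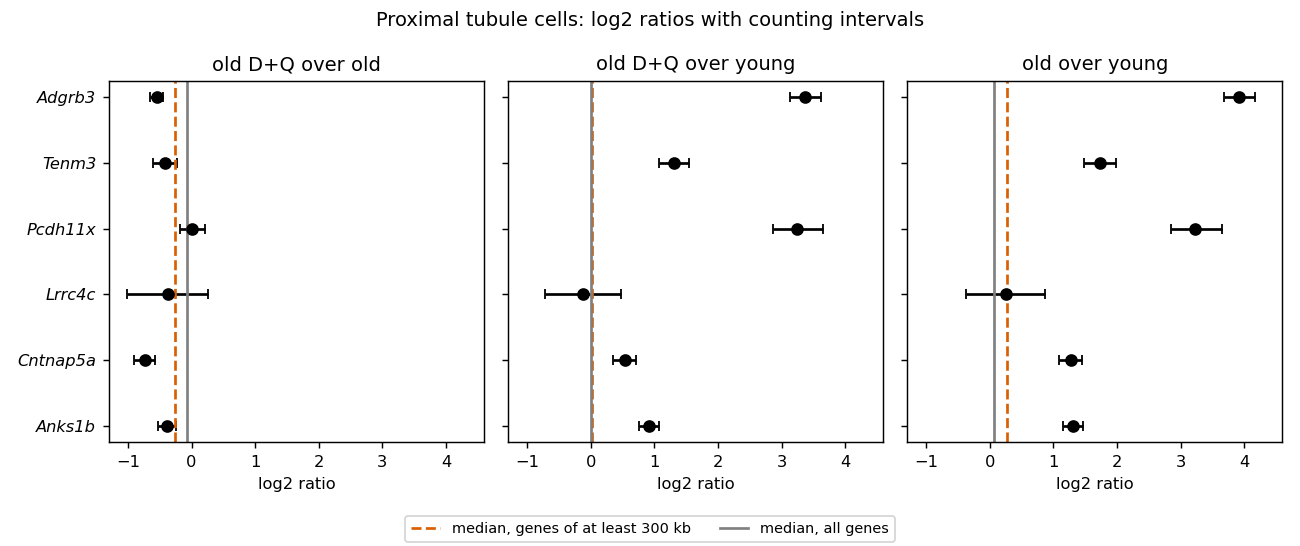
Log2 ratio of each gene in proximal tubule cells for old D+Q over old, old D+Q over young and old over young (points, with 95% counting intervals), beside the median of all genes (grey line) and of protein-coding genes of at least 300 kb (dashed). Old D+Q over old runs from -0.74 for Cntnap5a to 0.01 for Pcdh11x, and old over young from 0.26 for Lrrc4c to 3.91 for Adgrb3.

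Cells in the tubule were placed along its length by the balance of 5 S1 markers and 5 S3 markers, each set scaled to its share over tubule cells. Cells with at least a 2-fold excess of S1 markers (S1-range) numbered 1692, 1237 and 1748, and those with the reverse (S3-range) 2895, 2412 and 2657, in old D+Q, old and young. The cut is a range and not a cell type, and 463, 353 and 565 cells lay within 0.25 of it on the log2 scale. S3-range cells were 52.4%, 54.9% and 48.3% of tubule cells.

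The genes lay in different parts of the tubule. Adgrb3 in S3-range cells was at 172, 252 and 17.0 CPM in old D+Q, old and young, against 8.37, 14.1 and 0.932 CPM in S1-range cells. Each library therefore had its Adgrb3 at the S3 end. Within S3-range cells the log2 ratio stayed at -0.56 for old D+Q over old (-0.67 to -0.44) and 3.89 for old over young (3.62 to 4.18).

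Pcdh11x lay at the opposite end. In S1-range cells it was at 121, 127 and 10.3 CPM in old D+Q, old and young, and in S3-range cells at 4.27, 5.58 and 1.41 CPM. Within S1-range cells the log2 ratio was -0.07 for old D+Q over old (-0.28 to 0.13) and 3.61 for old over young (3.17 to 4.12), so old D+Q was again level with old.

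Tenm3 was S3-leaning in both old libraries, with 51.3, 67.8 and 14.7 CPM in S3-range cells and 7.66, 18.4 and 13.0 CPM in S1-range cells of old D+Q, old and young. Its young level was about the same at both ends. The old-over-young ratio was 2.20 in S3-range cells (1.88 to 2.54) and 0.50 in S1-range cells (-0.10 to 1.08), a difference between segments that was not tested. In S1-range cells old D+Q was lower than both old, at -1.26 (-1.96 to -0.58), and young, at -0.76 (-1.44 to -0.12).

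Cntnap5a and Anks1b were higher in S3-range than in S1-range cells of each library. Cntnap5a was at 60.4, 90.9 and 40.3 CPM in S3-range cells and at 8.13, 23.1 and 7.92 CPM in S1-range cells of old D+Q, old and young. Anks1b was at 91.8, 117 and 48.4 CPM in S3-range cells and at 25.4, 32.5 and 14.0 CPM in S1-range cells. The old D+Q over old ratio of Cntnap5a was -0.59 in S3-range cells (-0.78 to -0.40) and -1.50 in S1-range cells (-2.16 to -0.87). Lrrc4c was at 2.39 to 8.40 CPM over all segments and libraries. Under D+Q, 2 of the 6 genes (Tenm3 and Cntnap5a) were at least 2-fold lower than old in S1-range cells, against 1.31% of 10895 genes.

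**Figure D3:**
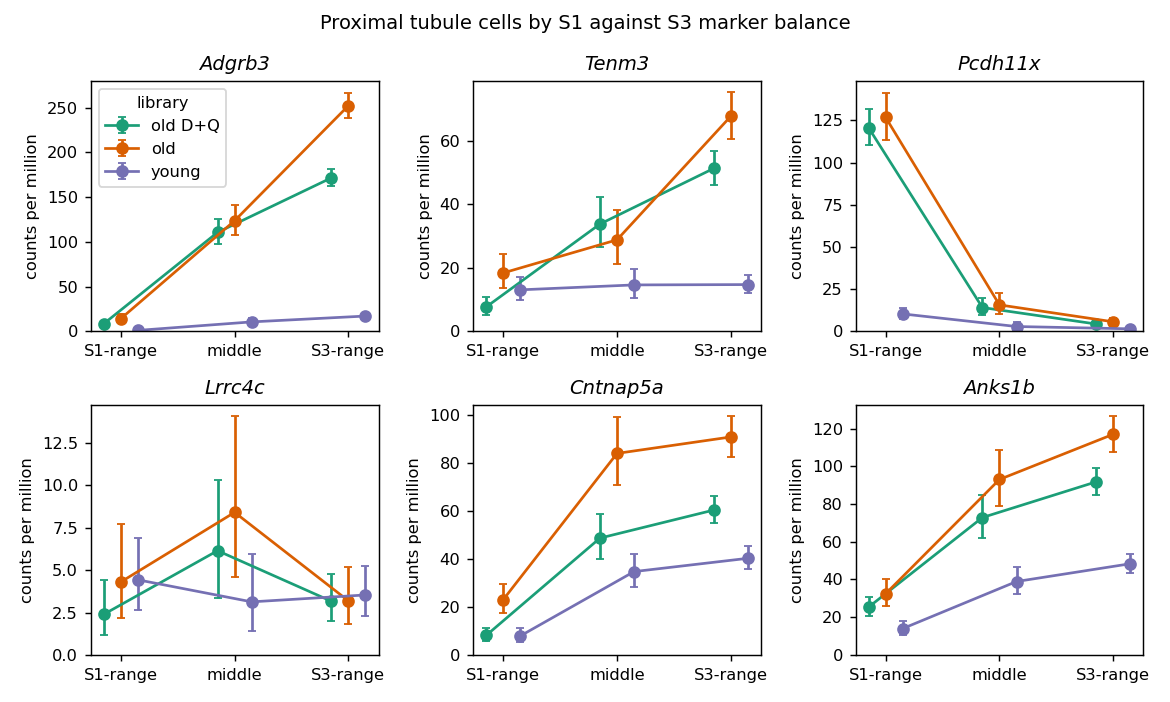
Level of each gene (CPM, linear axes from 0) in S1-range, middle and S3-range proximal tubule cells of the old D+Q, old and young libraries, with 95% Poisson intervals. Pcdh11x is highest at the S1 end (121, 127 and 10.3 CPM) and Adgrb3 at the S3 end (172, 252 and 17.0 CPM).

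Shares of cells with a UMI depend on depth, so each cell was also thinned to 1000 UMIs, at which no tubule cell was left out. Median depths were 2299, 1829 and 2367 UMIs in old D+Q, old and young tubule cells and 2518, 2509 and 2673 in endothelial cells. Thinned, Adgrb3 was found in 11.7%, 16.5% and 1.24% of S3-range cells, 0.355%, 0.728% and 0.114% of S1-range cells, and 3.46%, 7.69% and 0% of endothelial cells of old D+Q, old and young. The endothelial 0% is 0 of 262 young cells, which allows a share of cells with a UMI of up to 1.15% (3 of 262). In the old D+Q and old libraries the S3-range share of Adgrb3 was above the share in either other kind of cell, and the intervals did not overlap.

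Thinned shares of Pcdh11x in S1-range cells were 8.51%, 10.7% and 0.572%, against 2.16%, 1.71% and 0.382% of endothelial cells, in old D+Q, old and young. Shares of Tenm3 over the whole tubule were 2.80%, 3.50% and 1.22%, against 1.73%, 7.69% and 1.91% of endothelial cells, and in each library the tubule and endothelial intervals overlapped. Shares of Cntnap5a were 3.67%, 6.49% and 2.62% in the tubule and 2.16%, 4.27% and 0.382% in endothelial cells. Shares of Anks1b were 5.79%, 8.03% and 2.96% in the tubule and 2.16%, 7.69% and 0.382% in endothelial cells. The intervals of tubule and endothelial cells overlapped in old D+Q and old for Cntnap5a and in old for Anks1b. For Lrrc4c the tubule shares were 0.308%, 0.387% and 0.418%, and 1 of 231, 0 of 117 and 0 of 262 endothelial cells had a UMI of it. These endothelial counts are too few to set a level below which a tubule share of Lrrc4c would be background.

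Across cell classes, the genes had different homes. Proximal tubule cells held 84.0%, 83.4% and 55.4% of all Adgrb3 counts in old D+Q, old and young, and 80.7%, 74.4% and 44.3% of Pcdh11x counts, where they were 74.1%, 77.2% and 71.5% of the cells. Cells with markers of more than 1 class held 4.82%, 4.98% and 25.5% of Adgrb3 counts and 3.56%, 7.28% and 22.9% of Pcdh11x counts, and were 4.68%, 4.71% and 6.40% of the cells. Proximal tubule cells held 12.9%, 11.8% and 14.0% of Lrrc4c counts, while 68.3%, 63.9% and 67.8% lay in a small class of 316, 268 and 293 cells that expressed Slc34a2, a phosphate transporter, and Grik1, a glutamate receptor subunit. That class and 3 others were added after clusters of these cells had been seen, and none of the 6 genes was used to define them.

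**Figure D4:**
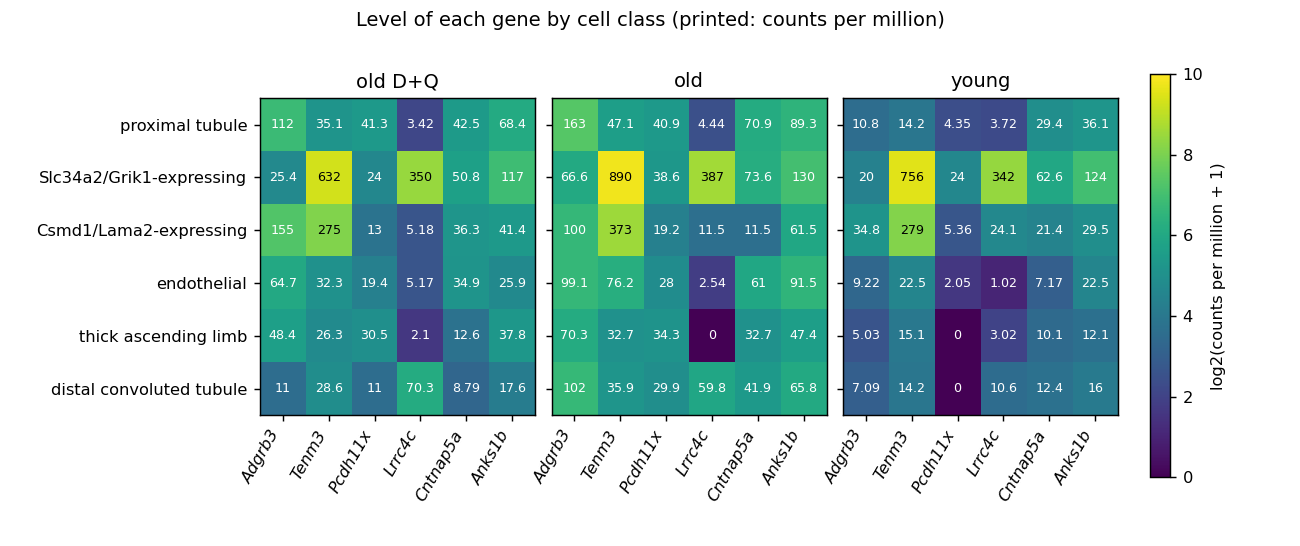
Level of each gene (columns) in 6 cell classes (rows) of the old D+Q, old and young libraries, with CPM printed in each square and colour on a log2 scale. Tenm3 and Lrrc4c are highest in Slc34a2/Grik1-expressing cells in each library, at 632, 890 and 756 CPM and at 350, 387 and 342 CPM.

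In Slc34a2/Grik1-expressing cells Lrrc4c was at 350, 387 and 342 CPM in old D+Q, old and young (248, 221 and 257 counts). The 3 levels overlapped, with a log2 ratio of -0.15 for old D+Q over old (-0.41 to 0.12) and 0.18 for old over young (-0.09 to 0.44). Tenm3 in the same cells was at 632, 890 and 756 CPM, with ratios of -0.49 for old D+Q over old (-0.68 to -0.31), -0.26 for old D+Q over young (-0.44 to -0.08) and 0.24 for old over young (0.06 to 0.41). Tenm3 was thus lowest in old D+Q in these cells. For scale, 3.06% of 9205 genes were at least 2-fold higher in old than in young there, and no member was except Adgrb3, at 25.4, 66.6 and 20.0 CPM (18, 38 and 15 counts). Marker RNA of this class was at 29.9, 49.7 and 27.7 CPM in proximal tubule cells, and its part in the Tenm3 and Lrrc4c levels of the tubule was not tested.

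Tenm3 came next in cells that expressed Csmd1 and Lama2, at 275, 373 and 279 CPM in 143, 105 and 125 cells of old D+Q, old and young. Its level in urothelial cells was 156, 177 and 125 CPM, and there the 3 intervals overlapped. Tenm3 was lower in proximal tubule, endothelial, thick ascending limb and distal convoluted tubule cells, at 14.2 to 76.2 CPM.

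In the distal convoluted tubule, the segment that takes up salt through Slc12a3, Lrrc4c was at 70.3, 59.8 and 10.6 CPM in old D+Q, old and young. These levels rest on 32, 20 and 6 counts in 12, 12 and 4 cells. The log2 ratio was 0.22 for old D+Q over old (-0.62 to 1.12), 2.63 for old D+Q over young (1.45 to 4.27) and 2.41 for old over young (1.12 to 4.10). In the same class 2.62% of 6917 genes were at least 2-fold higher in old D+Q than in young and 8.41% in old than in young. Marker RNA of Slc34a2/Grik1-expressing cells was at 28.6, 47.8 and 30.1 CPM in distal convoluted tubule cells, and its part in their Lrrc4c level was not tested. Lrrc4c in endothelial and thick ascending limb cells was at 0 to 5.17 CPM.

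In endothelial and thick ascending limb cells Adgrb3 was highest in old and lowest in young, as in the tubule. It was at 64.7, 99.1 and 9.22 CPM in endothelial cells and 48.4, 70.3 and 5.03 CPM in thick ascending limb cells of old D+Q, old and young. Those are 57.9%, 60.7% and 85.3% of its tubule level in endothelial cells and 43.3%, 43.1% and 46.5% in thick ascending limb cells. Slc34a1, the main phosphate transporter of the proximal tubule, was at 55.9%, 78.2% and 66.0% of its tubule level in endothelial cells and 45.4%, 72.0% and 53.6% in thick ascending limb cells. In distal convoluted tubule cells Adgrb3 was at 10.98, 102 and 7.09 CPM (5, 34 and 4 counts). That is 9.83%, 62.3% and 65.6% of its tubule level, where Slc34a1 was at 35.2%, 68.9% and 39.8%. There and in Slc34a2/Grik1-expressing cells (18, 38 and 15 counts) Adgrb3 was again highest in old. In both, old D+Q and young counts were too close to set their order, unlike in the tubule. In Csmd1/Lama2-expressing cells Adgrb3 had 60, 26 and 13 counts, a log2 ratio of 0.62 for old D+Q over old (-0.05 to 1.36) and 2.12 for old D+Q over young (1.28 to 3.15). It had 0 counts in the urothelial cells of each library.

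Pcdh11x outside the proximal tubule differed by class. In thick ascending limb cells it had 29, 21 and 0 counts in old D+Q, old and young. With young set at 3 counts in these cells, that is 10.1-fold higher in old D+Q and 11.4-fold higher in old. In distal convoluted tubule cells it had 5, 10 and 0 counts, 2.07-fold and 5.62-fold higher with young set in the same way. These folds leave out the counting error of the old D+Q and old counts. Urothelial cells held it at 147, 147 and 37.8 CPM (32, 5 and 13 counts), and Slc34a2/Grik1-expressing cells at 24.0, 38.6 and 24.0 CPM (17, 22 and 18 counts). Stromal and mural cells had 2, 3 and 9 counts in 20, 25 and 32 cells.

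Cntnap5a and Anks1b in Slc34a2/Grik1-expressing cells showed little difference between old and young. Cntnap5a was at 50.8, 73.6 and 62.6 CPM there (36, 42 and 47 counts), and Anks1b at 117, 130 and 124 CPM, in old D+Q, old and young. Cntnap5a was thus lowest in old D+Q in these cells, on few counts. Their old-over-young ratios were 0.24 (-0.40 to 0.87) and 0.07 (-0.39 to 0.52), and the difference from the tubule was not tested. In endothelial cells Cntnap5a was at 34.9, 61.0 and 7.17 CPM and Anks1b at 25.9, 91.5 and 22.5 CPM. Podocyte, stromal, leukocyte, intercalated and collecting duct classes held at most 15 counts of any of the 6 genes in a library. These classes had 16 to 106 cells in a library, so their few counts do not show that levels were low.

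Among tubule cells grouped without the 6 genes, the group led by Cntnap5a held 1312, 1446 and 237 cells of old D+Q, old and young, and had Cntnap5a at 114 CPM and Anks1b at 149 CPM over the libraries together. In a second group, led by Gm31600 and with Cyp4a14 among its leading genes, there were 798, 224 and 1675 cells, with Cntnap5a at 61.3 CPM and Anks1b at 85.6 CPM. The tubule cells of the 3 libraries were thus spread over the groups in different proportions, and the tubule ratios of each of the 6 genes compare unlike mixtures of these groups. Within the first group Cntnap5a was at 87.0, 151 and 95.1 CPM in old D+Q, old and young, with a ratio of -0.79 for old D+Q over old (-1.02 to -0.57) and 0.66 for old over young (0.26 to 1.09). Within the second it was at 76.2, 68.6 and 53.5 CPM, with ratios of 0.13 (-0.42 to 0.77) and 0.38 (-0.24 to 0.91). The old-over-young ratio of Cntnap5a was smaller within either of these groups than over the whole tubule, but not in every tubule group. In the others it ran from -1.18, on 1 count in old and 1 in young, to 2.87 (1.93 to 3.98). The latter was in a group led by Slc5a12, on 36 and 12 counts in old and young. In the group given last below it was 1.33 (0.80 to 1.88). Anks1b was at 137, 176 and 88.4 CPM in the first group and 120, 165 and 61.6 CPM in the second. Its old-over-young ratio was 0.98 (0.58 to 1.43) in the first and 1.43 (1.02 to 1.80) in the second. A further group had Adgrb3 and Cyp7b1, an S3 enzyme, among its 10 leading genes, with Adgrb3 at 369 CPM. There Adgrb3 was at 549, 658 and 41.2 CPM in old D+Q, old and young, and -0.26 in old D+Q over old (-0.38 to -0.14). Its ratio was -0.05 in the first group (-0.33 to 0.23) and -0.50 in the second (-1.08 to 0.16). For old over young, Adgrb3 was at 3.99 in the further group (3.71 to 4.30). In the first group that ratio was 1.68 (0.93 to 2.67), and in the second 4.29 (3.38 to 5.32). Tenm3 in the further group was at 177, 164 and 30.8 CPM, with 0.12 for old D+Q over old (-0.11 to 0.35). No other tubule group held more than 17 Tenm3 counts in a library.

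Levels of Adgrb3, Tenm3, Pcdh11x, Cntnap5a and Anks1b were lowest, in each library, in the bin of the largest mitochondrial shares. In tubule cells with a mitochondrial share of 25 to 50% (554, 203 and 469 cells in old D+Q, old and young), Adgrb3 was at 4.44, 28.7 and 0.916 CPM. In cells with a share of 2.5 to 5% it was at 148, 187 and 13.5 CPM. Malat1, an RNA that stays in the nucleus, was at 7456, 13600 and 13128 CPM in the first set of cells and at 182280, 160053 and 197728 CPM in the second. Median mitochondrial shares were 5.55%, 4.27% and 5.54% over tubule cells. With cells over 25% left out, Adgrb3 was at 121, 170 and 11.6 CPM, Tenm3 at 37.9, 48.3 and 15.2 CPM and Pcdh11x at 44.8, 42.7 and 4.71 CPM, in the same order of libraries as before. Below a share of 25% the genes did not all run alike: Pcdh11x in old D+Q was at 98.9 CPM below a share of 2.5% and 56.7 CPM from 2.5 to 5%, and in young it was highest from 10 to 25%, at 17.7 CPM. That young bin holds the cell with 22 UMIs.

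**Figure D5:**
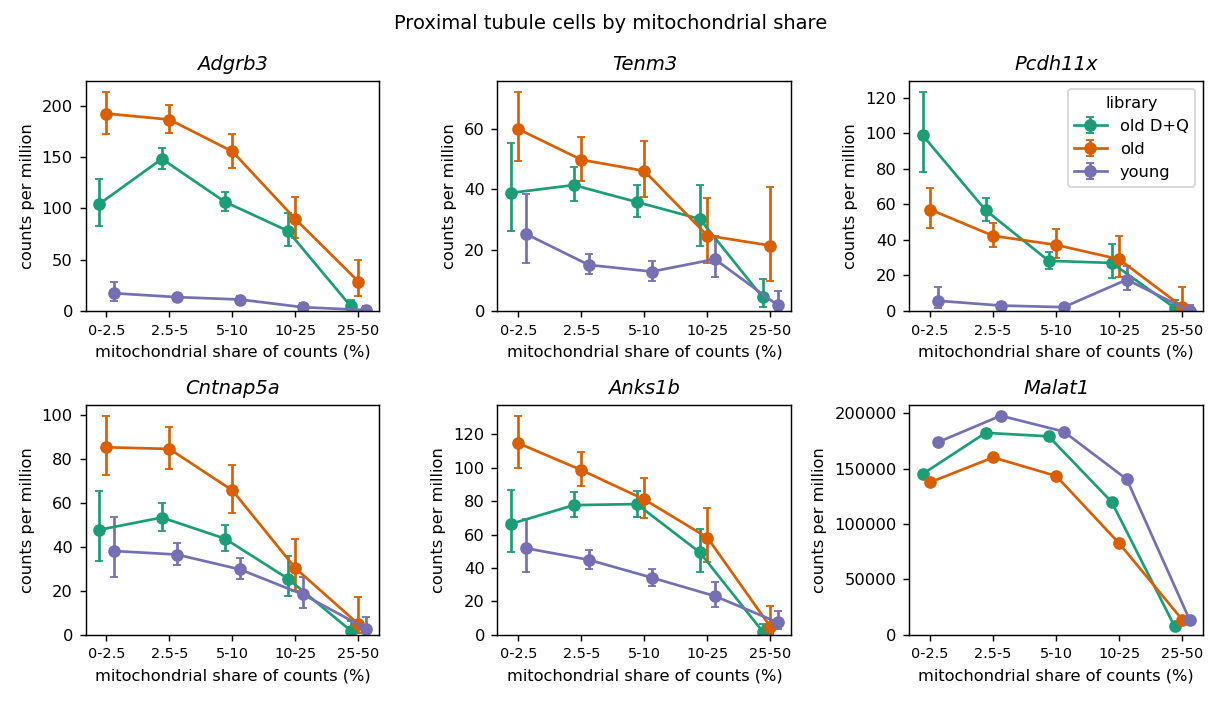
Level of 5 of the genes and of Malat1 (CPM, linear axes from 0) in proximal tubule cells by mitochondrial share of counts, for the old D+Q, old and young libraries, with 95% Poisson intervals. In each library all 6 are lowest in cells with a share of 25 to 50%, where Adgrb3 is at 4.44, 28.7 and 0.916 CPM.

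Markers of nerve cells and glia were scarce in the tubule. Of 16 such markers, 5, 4 and 5 had 0 counts in old D+Q, old and young tubule cells, and Th, Dbh, Nefl and Sox10 had 0 in each. The 16 summed to 16.7 CPM in old D+Q (14.6 to 19.0), 18.8 CPM in old (16.1 to 21.8) and 16.6 CPM in young (14.6 to 18.9). Few annotated genes that overlap the 6 are in the files, at 0 of 23 for Adgrb3 and 0 of 1 for Cntnap5a. For Tenm3, Pcdh11x, Lrrc4c and Anks1b 1 each is in the files, with 23, 0, 2 and 0 tubule counts. Overlapping genes that are not in the files could not be checked.

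Of 85 other synaptic adhesion genes, 31 passed the floor in the tubule, with a median log2 ratio of -0.06 for old D+Q over old, 0.31 for old D+Q over young and 0.29 for old over young, against -0.08, 0.00 and 0.06 over all genes. Of the 31, 1 stood at least 2-fold higher in old than in young (0.884% of all genes), which was Nrxn3, a presynaptic neurexin, at 31.2 against 8.78 CPM, a log2 ratio of 1.83 (1.52 to 2.14). Nrxn3 was at 22.9 CPM in old D+Q. Il1rap (0.98) and Ncam2 (0.94), a neural cell adhesion molecule, followed. In old D+Q over old, 1 of the 31 stood 2-fold higher and 1 lower, against 0.298% and 0.316% of all genes. Cadm4 had a ratio of 1.10 (0.64 to 1.59), at 11.9 against 5.52 CPM, and Tenm2, a second teneurin, stood at -1.05 (-1.65 to -0.46), at 3.13 against 6.49 CPM. Cadm1, at 106, 109 and 58.4 CPM in old D+Q, old and young, had a ratio of 0.86 in old D+Q over young (0.73 to 0.98).

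Of 33 other synaptic scaffold genes, 20 passed the floor, and none stood 2-fold apart in any of the 3 comparisons. With all-gene shares of 0.884% higher and 0.64% lower in old over young, 0.298% and 0.316% in old D+Q over old, and 0.604% and 0.631% in old D+Q over young, nothing is read from a 0 among so few genes. Their median was -0.13 for old D+Q over old, 0.08 for old D+Q over young and 0.23 for old over young. Shank2 (0.81), Dlg2 (0.77) and Lin7a (0.70) had the largest old-over-young ratios. Dlg2, a membrane-associated guanylate kinase, was at 85.1, 85.0 and 49.8 CPM in old D+Q, old and young.

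Of 15 genes for known partners of these proteins, 8 passed the floor and none stood 2-fold apart, from which, at the same all-gene shares, nothing is read. They had medians of -0.14, 0.14 and 0.28 in the same order. Ntng1, which encodes the netrin-G1 that Lrrc4c binds, was at 12.5, 13.4 and 9.13 CPM in old D+Q, old and young, with an old-over-young ratio of 0.56 (0.19 to 0.92). Dock1, which acts with Elmo1 to activate Rac, was at 90.6, 129 and 88.7 CPM. Its ratio was -0.50 for old D+Q over old (-0.62 to -0.39) and 0.54 for old over young (0.42 to 0.65), so its old D+Q level was near young. Adgrl1, a latrophilin that binds teneurins, was at 12.3 CPM in old D+Q and 15.04 CPM in old, a ratio of -0.29 (-0.62 to 0.05).

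Since the 6 genes are long, other long genes were set beside them. Of 542 other protein-coding genes of at least 300 kb in the files, 345 passed the floor, with a median log2 ratio of -0.26 for old D+Q over old, 0.02 for old D+Q over young and 0.26 for old over young. Of the 345, 11 stood at least 2-fold higher and 3 at least 2-fold lower in old than in young, against 0.884% and 0.64% of all genes. Cacnb2, a calcium channel subunit, was at 26.6 against 7.65 CPM in old and young, a ratio of 1.80 (1.47 to 2.14), and Dgkb, a diacylglycerol kinase, at 56.4 against 16.3 CPM, a ratio of 1.79 (1.57 to 2.02). Nuclear RNAs did not share one direction, with Malat1 at -0.31, Neat1 at -0.45 and Kcnq1ot1 at 0.46 in old over young.

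The genes whose levels over 24 sums of a class in a library were most like each member were named by Pearson's r of log2(CPM + 1) over 9205 genes. The sums share libraries and free RNA, so r describes these sums and has no test. Adgrb3 was most like Aoah (r = 0.88) and 0610040F04Rik (0.88), Tenm3 most like Gria4 (0.87), an AMPA receptor subunit, and Alpk1 (0.87), and Pcdh11x most like Cadm1 (0.78) and Cpe (0.78). Lrrc4c was most like 2700062C07Rik (0.85) and Rnf214 (0.84), Cntnap5a most like Slc29a3 (0.91) and Ly6g2 (0.89), and Anks1b most like Mir124-2hg (0.82) and Apeh (0.80). Mir124-2hg, a host gene of the neuronal miR-124, was at 29.5, 20.9 and 0.281 CPM in old D+Q, old and young tubule. Among the members, r was highest for Adgrb3 and Cntnap5a (0.73) and lowest for Pcdh11x and Lrrc4c (0.05).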

How the data were processed

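The 3 libraries each hold kidney cells of male mice. Per the labels, collagenase II released the cells, red cells were lysed, and 3′ libraries of polyA RNA were built with MobiCube. The authors deposited raw UMI counts per gene and barcode, not normalised. For the aligner, the counter and the choice of barcodes, the sources used here state nothing. Per the submitters' processing notes, GRCm39 and mm10 were named without roles, so no coordinate comes from the files.

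Barcodes over 50% mitochondrial counts (149, 82 and 385 in old D+Q, old and young) and the highest Scrublet scores at 0.8% per 1000 barcodes (432, 253 and 532) were left out (scanpy 1.11.5, Python 3.11.15); the automatic doublet threshold called 0. A cell joined a class other than the proximal tubule on 2 conditions. It held at least 3 UMIs from at least 2 of the class's markers, and more than its library's own marker share gave by Poisson (tail 0.0001). Proximal tubule cells joined no other class and held at least 3 UMIs from at least 2 tubule markers, with no Poisson limit. Of the cells that joined no other class, 13, 15 and 16 in old D+Q, old and young fell short of this. Counts were summed per class and library, scaled to CPM, and compared as log2 ratios with 0.5 counts added. Intervals were exact: Poisson for levels, conditional binomial for ratios and Clopper-Pearson for shares. Of these steps, only the log2 ratio and its interval were tried on simulated data. Those were Poisson counts with known folds, which hold no clumping of counts in single cells. The gates, the doublet cut and the other intervals were not simulated. A gene passed the floor with a mean of 5 CPM and 30 counts in all. TMM factors came from edgeR 4.0.16 in R 4.3.3. Spans, starts and promoter windows came from RefSeq.

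The 6 genes, the lists and the markers were chosen with earlier results of these data known. The 4 added classes, the segment limits, the Poisson gate and the motifs were set after counts or sequences had been seen. Named genes are the 6, up to 3 of each list with the largest absolute ratio in each comparison, and the 2 most alike per member; the text gives a choice of these. Counting error is smallest where counts are high, so classes of few cells give wide intervals.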

Additional observations from a re-analysis of the deposited data

Results flagged for a closer look

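Tenm3 went opposite ways in 2 kinds of cells when old D+Q was set against young. In Slc34a2/Grik1-expressing cells it was at 632 CPM in old D+Q and 756 CPM in young, a log2 ratio of -0.26 (-0.44 to -0.08), while in proximal tubule cells it was at 35.1 and 14.2 CPM, a ratio of 1.31 (1.07 to 1.55). The difference between the classes was not tested, since each group has 1 library.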

How the results depend on the processing

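No paired analysis was possible because each group has 1 library, and no library could be left out for the same reason. All 18 ratios of the 6 genes moved by less than their counting intervals with TMM or median-of-ratios scaling, a 25% or no mitochondrial limit, no doublets left out, 2 counts added, or a stricter gate. Some moved with thinned cells (4 of 18), all barcodes and no class (6), clusters in place of gates (2), S3-range cells only (5) and S1-range cells only (8). The last 2 settings, leaving out the 4 added classes (2 moved) and leaving out the 2 cells highest in Pcdh11x (2 moved) were chosen after seeing the data. In S1-range cells Tenm3 reversed in old D+Q over young, to -0.76. The count lower by 2-fold in old D+Q than in old, 0, became 1 at 1.5-fold and 2 in S1-range cells.

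For old D+Q over old, the adhesion list's median turned to 0.0262 with TMM and 0.0207 with median-of-ratios scaling, and the scaffold list's became -0.0488 and -0.0542. In old D+Q over old these scalings shift every gene by 0.08, from an all-gene median of -0.08, so the change of sign is not particular to the lists. The long genes' median became -0.17 with TMM, -0.18 with median-of-ratios, -0.21 at a 25% mitochondrial limit and -0.16 with all barcodes. It became 0.21 with TMM and 0.33 with clusters for old over young, and 0.0787 with clusters for old D+Q over young. Outside the 2 scalings, the cause was not tested. Depth limits Lrrc4c most, with 41 to 53 tubule counts in a library.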

Other observations

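Lrrc4c was also present in the few barcodes that expressed the fat-cell genes Plin1 and Cidec. It had 0, 12 and 5 counts there in 4, 11 and 50 cells of old D+Q, old and young, which for old is 490 CPM (253 to 857) and for young 41.5 CPM (13.5 to 96.9). The old D+Q count of 0 allows up to 309.9 CPM, at a floor of 3 counts.

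Among long genes of the tubule, Gpc3, a cell-surface glypican, was at 52.3 CPM in old D+Q and 14.4 CPM in young, a log2 ratio of 1.86 (1.64 to 2.09). Egfem1 was at 6.78 CPM in old D+Q and 22.7 CPM in young, a ratio of -1.74 (-2.09 to -1.41). Trdn, which encodes triadin, was at 20.8 CPM in old D+Q, 10.2 CPM in old and 7.16 CPM in young. Dock2 was at 4.15 CPM in old D+Q and 12.2 CPM in old, a ratio of -1.55 (-2.04 to -1.09), and it is also a leukocyte marker: leukocyte markers summed to 55.6, 101 and 51.1 CPM in old D+Q, old and young tubule, whose part in that ratio was not tested.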
